A study of Mus musculus with 24 samples.

Results

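Organoids were grown from irradiated and sham-irradiated salivary glands 14 days after irradiation and compared in passage 1 and in passage 2 of the culture. The irradiation by passage interaction asks whether the difference between irradiated and sham was the same in the 2 passages. It was computed for each gene as the log2 ratio of irradiated to sham libraries in passage 2 minus the same ratio in passage 1. Its samples were chosen by their labels as the 12 libraries of day 14, out of 24 in the series, with 3 libraries in each of 4 groups. The groups were sham passage 1, irradiated (IR) passage 1, sham passage 2 and IR passage 2. All of them came from stem and progenitor cells of salivary glands of C57BL/6 mice, grown as organoids in Matrigel with EGF, FGF2, insulin, dexamethasone (a glucocorticoid) and Y-27632 (a kinase inhibitor). Irradiation was given before the cells were taken from the gland, and neither its dose nor the age of the animals is given in the sources used here. The other 12 libraries of the series are the same 4 groups at day 90. Whether the 3 replicates of a group are different mice or repeats of one culture is not in the labels, and a p-value here covers the spread among libraries only, which may be technical. The labels tie no library of passage 2 to one of passage 1, so whether the effects in the 2 passages are independent is not known.

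Ionising radiation damages DNA directly and through reactive oxygen species. Cells answer oxidants with the transcription factor NRF2, which binds antioxidant response elements near genes for glutathione synthesis, peroxide removal and NADPH supply. Stratified epithelia, and duct-like cells in culture, can also turn on squamous genes, such as stress keratins, cornified envelope proteins and the calprotectin subunits S100a8 and S100a9. Salivary ducts hold basal cells, marked by Krt5 and Krt14, and luminal cells, marked by Krt7, Krt8, Krt18 and Wfdc2. Bone morphogenetic protein (BMP) signals, which include Bmp4, induce the inhibitor of differentiation genes Id1, Id2 and Id3.

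The 12 libraries held 1151608 to 2510480 counts on genes, over 13402 to 14839 genes. Ribosomal RNA took a large share, 17.2% to 28.4% under the predicted gene Gm42418 and 10.2% to 15.8% as mitochondrial transcripts, which left 717549 to 1821645 counts. Values are in CPM, the count of a gene scaled to its library's size, and come from 3′ end reads, whose number does not grow with transcript length. The basal markers Krt5 (1082 to 3363 CPM) and Krt14 (2313 to 5355 CPM) were abundant in every library. Of 11 endothelial markers none had enough counts to be tested, and none passed 3 counts in any library. Among 17 leukocyte markers 6 were at 0 in all 12 libraries, including Cd3e and Adgre1. Another 4 had enough counts to be tested, and Cd68 had 1 to 16 counts in every library. Sham replicate 1 and IR replicate 3 of passage 2 stood apart from the other libraries of their groups in genes of the interferon response, as did sham replicate 2 of passage 1. IR replicate 3 of passage 1 was the irradiated library nearest to the sham mean in 35 of the 36 genes called there. A lower value in such bulk cultures can come from fewer cells of a type or from less RNA per cell, and these cannot be told apart.

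In passage 1, genes of the antioxidant response (Srxn1, Gsta4, Gpx2), the retinaldehyde dehydrogenase gene Aldh1a3 and the calprotectin gene S100a8 rose after irradiation, and in passage 2 their IR libraries overlapped sham or, for Gsta4, lay below it. The duct genes Wfdc2 and Krt8 rose in passage 2. No gene passed the test of the interaction itself. Of 10563 genes tested with edgeR's quasi-likelihood test, 0 (0.0%) had an adjusted p under 0.05, and the lowest adjusted p was 0.181. At an unadjusted p under 0.05 there were 729 genes. In 385 of them (3.64%) the passage 2 effect lay above the passage 1 effect, and in 344 (3.26%) it lay below. The count of calls depended on the tool and on single libraries. DESeq2 called 18 genes, 2 with values above 0 and 16 below. Without IR replicate 3 of passage 1 the count was 24, 1 above and 23 below. With no filter on low counts it was 241.

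The irradiation effect itself was called in more genes in passage 1 than in passage 2. In passage 1, 36 genes (0.341%) were called, 31 that rose and 5 that fell, and 581 genes (5.50%) were above 0 and 579 (5.48%) below at an unadjusted p under 0.05. In passage 2, 2 genes (0.0189%) were called, Wfdc2 and Krt8, which both rose, with 415 genes (3.93%) above 0 and 296 (2.80%) below at the unadjusted threshold. The passage 2 count rested on the choice of libraries. It was 0 when only the passage 2 groups were fitted, and 155 without the 2 passage 2 libraries that stood apart. In that last fit the sham libraries kept had mean log2 CPM of interferon response genes of 5.78 and 5.61, and the IR libraries 2.34 and 2.67. Irradiation and the interferon level therefore cannot be told apart in it. Sham replicate 2 of passage 1, which also stood apart, was kept. With a single library of day 14 left out, the passage 2 count was 38 without IR replicate 3 of passage 2, 7 without its sham replicate 1, 0 without any of its other libraries, and 1 or 2 without a library of passage 1. The passage 1 count was 146 without IR replicate 3 of passage 1, at most 2 without any of the other 5 libraries of passage 1, and 20 to 57 without a library of passage 2. None of the 36 genes called in passage 1 was called in passage 2. For 22 of them (61.1%) the effect had the same sign in passage 2, against 55.6% of all tested genes. Their median log2 effect was 1.73 in passage 1 and -0.04 in passage 2. The 31 genes that rose had a median of 2.05 in passage 1 and 0.04 in passage 2, and the 5 that fell had -2.55 and -0.84. Since these genes were picked for their passage 1 values, a smaller value elsewhere follows in part from the choice and is given as a description. The passage 2 effects come from other libraries. In 5 of the 36 genes the passage 2 effect had the same sign and an unadjusted p under 0.05, namely Id2, Vnn1, Tnfrsf26, Pdzd2 and Igfbp5. The same held for 420 of all 10563 tested genes.

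**Figure D1:**
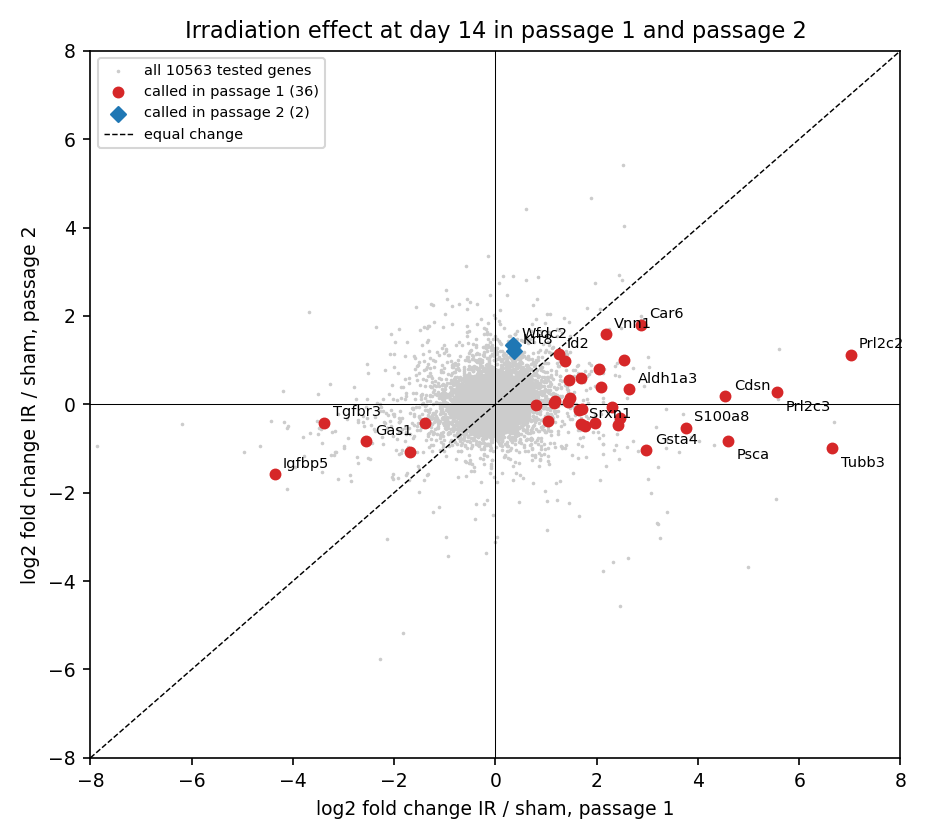
Log2 fold change of IR over sham at day 14 in passage 1 (x axis) and passage 2 (y axis), for all 10563 tested genes (grey), the 36 called in passage 1 (red circles) and the 2 called in passage 2 (blue diamonds). The dashed line marks equal change. Most of the red points lie near 0 on the y axis, with a median of -0.04, while Id2, Vnn1 and Car6 lie closer to the line.

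Genes of the NRF2 antioxidant and glutathione list were higher after irradiation in passage 1, and their median effect in passage 2 was close to 0. All 29 tested members (of 32) had a log2 effect above 0 in passage 1, with a median of 0.89. There 5 were called and rose (Srxn1, G6pdx, Gclc, Gsta4 and Gpx2), and 15 were above 0 at an unadjusted p under 0.05. Over all tested genes 0.341% were called in passage 1, in either direction, and 5.50% were above 0 at the unadjusted threshold. In passage 2 the median was -0.01 and no member was called. There 3 were below 0 at the unadjusted threshold (2.80% of all tested genes) and none above (3.93%). The median interaction was -0.94, against 0.03 over all tested genes. Of the 29 members 27 were below 0, 15 of them at an unadjusted p under 0.05, and none was above 0 at that threshold. The shares over all tested genes were 3.26% below 0 and 3.64% above, and they apply to the interaction counts of every list here. The members' median stayed below 0 under all 22 alternatives, between -1.13 and -0.68. The mean log2 CPM of the list was 5.85, 5.94 and 6.13 in the sham libraries of passage 1 and 6.97, 7.22 and 6.46 in the IR libraries. In passage 2 it was 6.45, 6.05 and 6.08 in sham and 6.12, 5.97 and 6.04 in IR, so that the groups overlapped there and not in passage 1.

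Gsta4 (ENSMUSG00000032348) conjugates glutathione to aldehydes formed by lipid peroxidation. Gsta4 was at 37.1, 26.8 and 35.4 CPM in the sham libraries and at 286, 419 and 88.1 CPM in the IR libraries of passage 1. Values of passage 2 were 183, 118 and 116 CPM in sham and 65.4, 67.0 and 69.9 CPM in IR. The passage 1 groups did not overlap, with IR above sham, and the passage 2 groups did not overlap either, with IR below sham. Gsta4 rose in passage 1 by 2.98 ± 0.60 on the log2 scale (± SE, as for all effects and interactions here, adjusted p = 0.0332), its passage 2 effect was -1.04 ± 0.55 (unadjusted p = 0.0743), and the interaction was -4.02 ± 0.81 (unadjusted p = 5.94e-05, adjusted p = 0.181). Its sham level was itself higher in passage 2 than in passage 1. Genes with all 3 IR libraries above all sham libraries in passage 1 and all below in passage 2, as for Gsta4, numbered 54 (0.511%), and the reverse held for 44 (0.417%).

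Srxn1 (ENSMUSG00000032802) encodes sulfiredoxin, which repairs over-oxidised peroxiredoxins. Srxn1 stood at 17.6, 41.9 and 34.9 CPM in sham and 134, 112 and 62.4 CPM in IR libraries of passage 1. Passage 2 held 36.4, 36.0 and 24.98 CPM in sham and 24.7, 19.2 and 26.4 CPM in IR. IR and sham were apart in passage 1 and overlapped in passage 2. Srxn1 rose in passage 1 by 1.69 ± 0.31 (adjusted p = 0.0265), against -0.45 ± 0.33 in passage 2, an interaction of -2.13 ± 0.46 (unadjusted p = 0.000112, adjusted p = 0.181). G6pdx makes the first enzyme of the pentose phosphate pathway, a source of NADPH. The sham libraries of passage 1 held 29.0, 26.8 and 26.7 CPM of G6pdx and the IR libraries 60.1, 83.1 and 46.4 CPM. The passage 2 values were 32.4, 28.4 and 30.6 CPM in sham and 33.3, 30.5 and 31.9 CPM in IR. All 6 passage 2 libraries thus lay within the range 28.4 to 33.3 CPM, and the interaction was -1.11 ± 0.32 (unadjusted p = 0.00198, adjusted p = 0.375). Gpx2, a glutathione peroxidase of epithelia, rose in passage 1 by 1.04 ± 0.23 (adjusted p = 0.0474). Passage 1 gave 128, 101 and 124 CPM of Gpx2 in sham and 242, 299.5 and 187 CPM in IR libraries. For passage 2 they were 272, 156 and 183 CPM in sham and 167, 165 and 136 CPM in IR. Its passage 2 groups overlapped, and the interaction was -1.42 ± 0.32 (adjusted p = 0.181).

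The promoters of Srxn1 and G6pdx are shown because both genes rose in passage 1 and both hold a short motif linked to oxidant-responsive transcription. They are the 250 bases before the gene start from RefSeq (build GRCm38.p6, read on the gene's strand), for Srxn1 at chr2:152105274-152105523 on the plus strand and for G6pdx at chrX:74428881-74429130 on the minus strand. Capitals mark TGAGTCA, the AP-1 motif, in Srxn1 and the antioxidant response element core TGACNNNGC, on the opposite strand, in G6pdx.
Srxn1: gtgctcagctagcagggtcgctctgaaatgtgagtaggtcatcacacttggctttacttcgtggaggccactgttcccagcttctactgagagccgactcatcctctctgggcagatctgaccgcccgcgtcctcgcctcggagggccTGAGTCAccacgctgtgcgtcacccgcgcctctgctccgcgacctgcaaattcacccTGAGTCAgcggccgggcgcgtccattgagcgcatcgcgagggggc
G6pdx: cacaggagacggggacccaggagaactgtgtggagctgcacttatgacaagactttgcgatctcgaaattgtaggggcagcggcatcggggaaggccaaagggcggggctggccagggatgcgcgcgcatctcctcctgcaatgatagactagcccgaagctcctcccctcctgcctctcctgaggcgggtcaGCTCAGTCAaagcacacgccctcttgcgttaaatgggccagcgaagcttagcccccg
Both strands were searched, and a stretch can match both motifs. The Srxn1 matches begin at -102 and -45 from the gene start, and the G6pdx match begins at -57. Of 32851 mouse promoter windows of this length 10.2% held TGACNNNGC and 4.46% held TGAGTCA. Of the 29 list members 23 had windows, 32 in all, of which 5 (15.6%) held the first motif and 3 (9.38%) the second. Among the other members called in passage 1, Gpx2 had no match in this window, and Gclc and Gsta4 had no window. A match is a description of the letters and not a binding site.

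Gclc and Gclm encode the 2 subunits of the enzyme that limits glutathione synthesis, and their passage 2 effects lay on either side of 0. Gclc was at 217, 200.2 and 255 CPM in the sham libraries and at 756, 990.2 and 416 CPM in the IR libraries of passage 1. Values of passage 2 were 318, 153 and 131 CPM in sham and 352, 338 and 216 CPM in IR. Gclc rose in passage 1 by 1.68 ± 0.32 (adjusted p = 0.0296), was 0.59 ± 0.32 in passage 2 (unadjusted p = 0.0775), and its interaction was -1.09 ± 0.45 (unadjusted p = 0.0235). For Gclm the effects were 0.86 ± 0.36 in passage 1 (adjusted p = 0.369) and -0.61 ± 0.35 in passage 2, and the interaction was -1.47 ± 0.50 (unadjusted p = 0.00783). Slc7a11, the cystine importer that feeds glutathione synthesis, had an interaction of -2.05 ± 0.62, with 1.78 ± 0.45 in passage 1 (adjusted p = 0.0772) and -0.26 ± 0.44 in passage 2. Pgd, of the pentose phosphate pathway, had -0.94 ± 0.37. Cat, which makes catalase, had 1.60 ± 0.38 in passage 1 (adjusted p = 0.063) and -0.0003 ± 0.38 in passage 2. The glutathione S-transferase gene Gstm1 and the haem oxygenase gene Hmox1 were 2 of the 3 members below 0 in passage 2 at an unadjusted p under 0.05, at -1.40 ± 0.57 and -0.88 ± 0.39. Nqo1, a quinone reductase often used to report NRF2 activity, was low, at 1.33 to 42.5 CPM, with an interaction of -2.98 ± 1.27 (unadjusted p = 0.028).

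**Figure D2:**
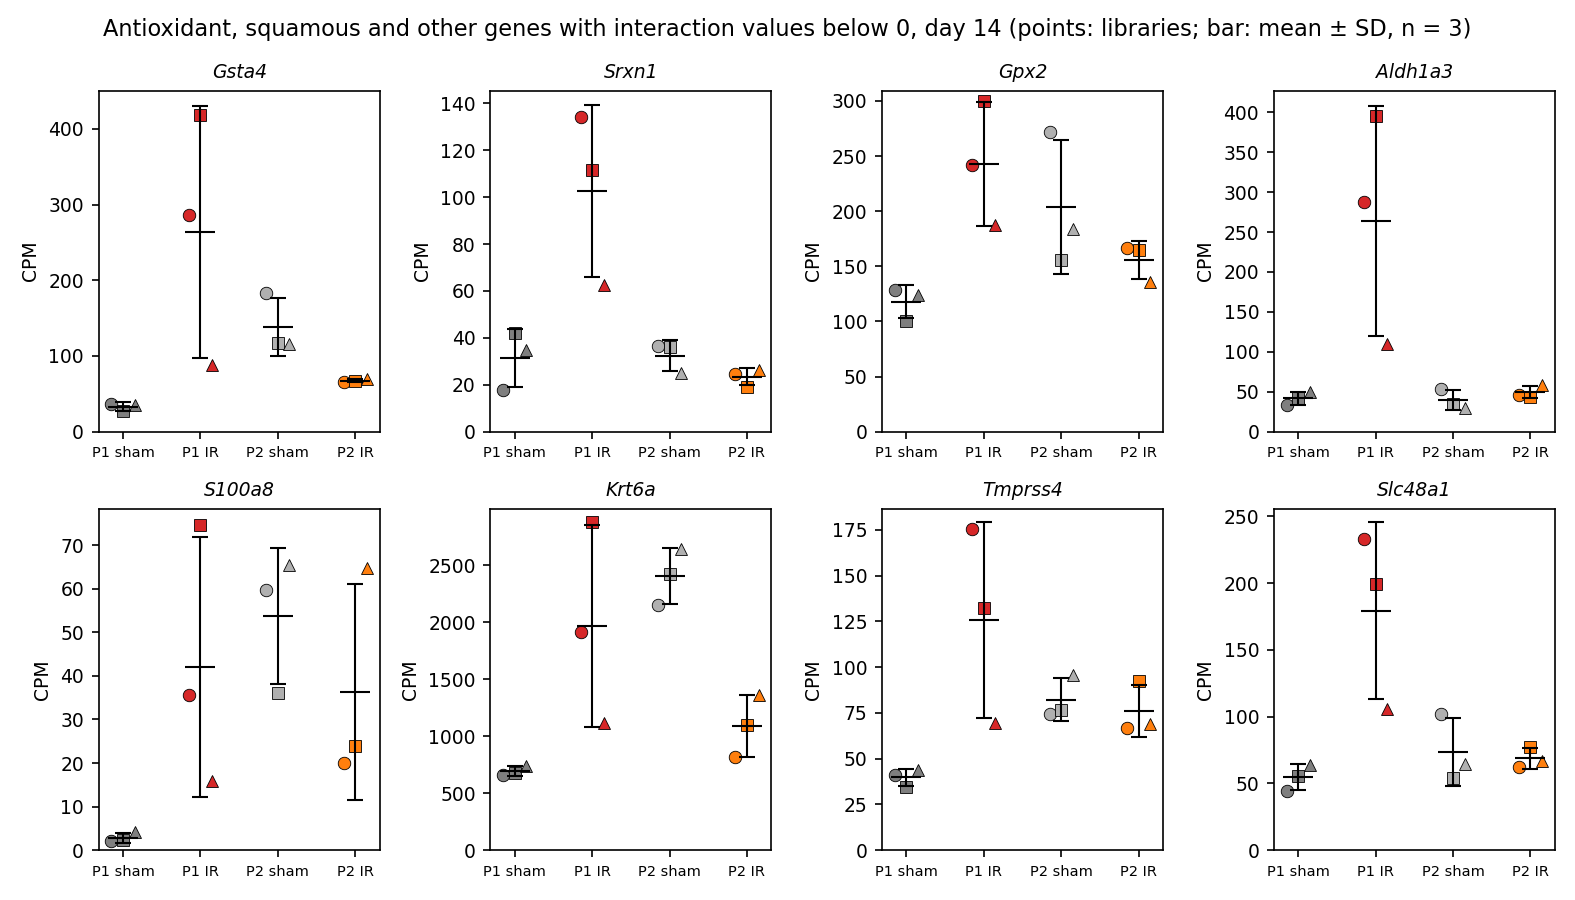
CPM of 8 genes with interaction values below 0 in each of the 12 libraries of day 14, by group (P1 and P2 are passages 1 and 2, circle, square and triangle are replicates 1 to 3, bars are mean ± SD, n = 3). In passage 1 every IR library lies above every sham library in all 8 genes. In passage 2 the IR libraries overlap the sham libraries or, for Gsta4 and Krt6a, lie below them. Except Krt6a, the genes are among the 8 below 0 with the lowest interaction p in these same libraries. The pattern thus follows in part from the choice, and the share of all tested genes with such separation in passage 1 was not counted.

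Squamous genes had the lowest median interaction of the lists described here, and the sham libraries of the 2 passages did not overlap in their mean level. Of 40 genes 30 were tested. In passage 1 the median effect was 1.90, and 2 members were called and rose (S100a8 and Cdsn), against 0.341% of all tested genes called in either direction. There 18 were above 0 at an unadjusted p under 0.05 (5.50% of all tested genes). In passage 2 the median was -0.62 and none was called. At the unadjusted threshold 8 were below 0 there (2.80% of all tested genes) and none above (3.93%). In the interaction 29 of 30 members were below 0, 18 of them at an unadjusted p under 0.05 (3.26% of all tested genes). The median interaction was -2.60. It lay between -2.96 and -2.28 under the 22 alternatives. The mean log2 CPM of the list was 3.31, 3.52 and 3.85 in passage 1 sham and 5.37, 5.77 and 4.20 in passage 1 IR. It was 4.75, 5.10 and 5.29 in passage 2 sham and 3.96, 4.18 and 4.88 in passage 2 IR. The sham libraries of passage 2 thus lay above all sham libraries of passage 1, and below 2 of its 3 IR libraries.

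S100a8 (ENSMUSG00000056054), a calcium-binding subunit of calprotectin, had the interaction farthest below 0 among the 8 genes chosen by their p in this direction. S100a8 stood at 2.03, 2.33 and 4.11 CPM in sham and 35.6, 74.6 and 15.9 CPM in IR libraries of passage 1. Passage 2 held 59.7, 36.0 and 65.5 CPM in sham and 20.1, 23.9 and 64.8 CPM in IR. All sham values of passage 2 were above all sham values of passage 1. S100a8 rose in passage 1 by 3.76 ± 0.70 (adjusted p = 0.0265), its passage 2 effect was -0.53 ± 0.48, and the interaction was -4.29 ± 0.86 (unadjusted p = 5.52e-05, adjusted p = 0.181). S100a9, its partner, had an interaction of -3.69 ± 1.16 (unadjusted p = 0.00429). Both genes are also abundant in neutrophils. The summed CPM of the other 15 leukocyte markers was 14.8, 18.0 and 15.9 in passage 1 sham and 58.7, 34.01 and 30.9 in passage 1 IR. In passage 2 it was 2.27, 1.77 and 2.15 in sham and 13.8, 17.9 and 5.43 in IR, so that the IR libraries were above the sham libraries in both passages. Most counts of this sum over the 12 libraries were of Lyz2 (171), which is also on the acinar list, and Klrb1f (123). Ptprc did not pass 2 counts in any library, and Itgam did not pass 3, while Cd68 had 1 to 16 counts in every library. The part of leukocytes in the S100a8 result was not tested.

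Krt6a, Krt6b and Krt16 are the stress keratins of stratified epithelium. The sham libraries of passage 1 held 660.4, 680.3 and 741 CPM of Krt6a and the IR libraries 1916, 2883 and 1114 CPM. The passage 2 values were 2150.0, 2424 and 2645 CPM in sham and 815, 1099 and 1360.0 CPM in IR. The groups did not overlap in either passage, and the order of IR and sham was opposite. Krt6a was 1.50 ± 0.44 in passage 1 (adjusted p = 0.155) and -1.14 ± 0.43 in passage 2 (unadjusted p = 0.0147), an interaction of -2.65 ± 0.61 (unadjusted p = 0.000275, adjusted p = 0.195). Krt6b had an interaction of -5.82 ± 1.54 and Krt16 of -4.69 ± 1.22. These keratins have close copies, among which reads could have been split. Cdsn, corneodesmosin of the cornified cell junction, rose in passage 1 by 4.54 ± 0.96 (adjusted p = 0.046) and was 0.19 ± 0.78 in passage 2. Spink5, a protease inhibitor of the cornified layer, was 3.36 ± 0.83 in passage 1 (adjusted p = 0.0772) and -0.81 ± 0.74 in passage 2. Lypd3 and Sbsn, both secreted or surface proteins of stratified epithelium, had interactions of -3.24 ± 0.78 and -2.55 ± 0.62. Krt10 and Krtdap, markers of the suprabasal layer, were low in passage 2 sham replicate 1 (4.55 and 11.4 CPM) and higher in the other 2 sham libraries (39.0 and 54.7 CPM for Krt10, 62.6 and 95.2 CPM for Krtdap).

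**Figure D3:**
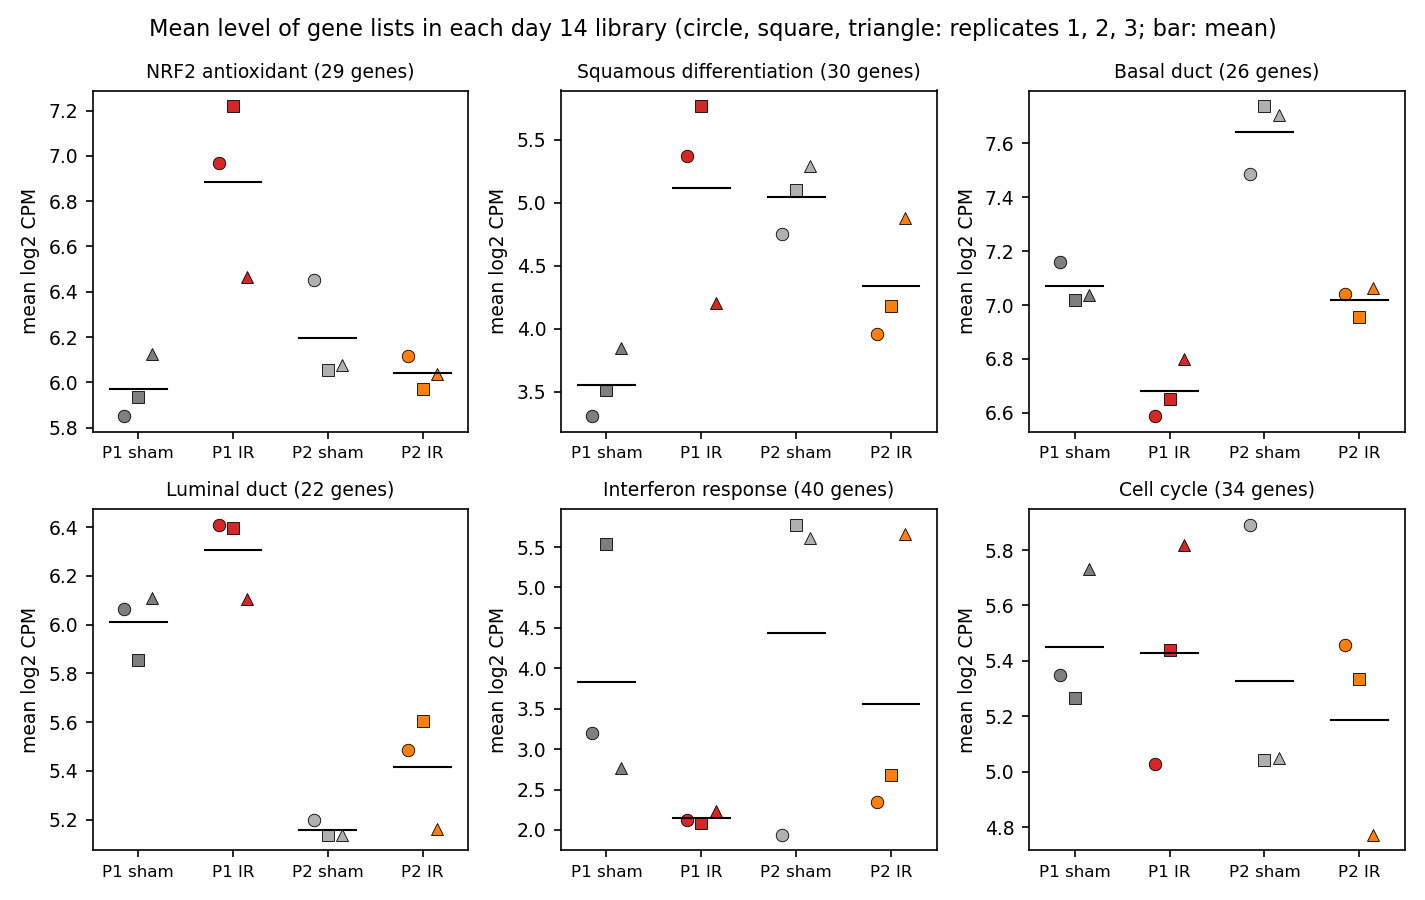
Mean log2 CPM of 6 gene lists in each library of day 14, by group, with replicates 1 to 3 as circle, square and triangle and a bar at the mean of 3 libraries. NRF2 and squamous genes lie higher in IR than in sham libraries of passage 1 and not of passage 2, luminal genes are lower in every passage 2 library than in every passage 1 library, and the interferon list separates single libraries, at 5.54 to 5.78 in 4 of them.

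Other genes that rose in passage 1 were near or below 0 in passage 2. Aldh1a3 (ENSMUSG00000015134), a retinaldehyde dehydrogenase counted among salivary progenitor markers, had the lowest adjusted p of passage 1. Passage 1 gave 33.1, 42.5 and 49.3 CPM of Aldh1a3 in sham and 288, 395 and 109 CPM in IR libraries. For passage 2 they were 53.4, 34.9 and 29.3 CPM in sham and 45.9, 43.8 and 57.9 CPM in IR. It rose in passage 1 by 2.65 ± 0.36 (adjusted p = 0.00207), against 0.35 ± 0.36 in passage 2, where the groups overlapped. The interaction was -2.30 ± 0.50 (unadjusted p = 0.000141, adjusted p = 0.181). Slc48a1, a haem transporter, was the second by adjusted p. Slc48a1 was at 44.6, 55.3 and 64.2 CPM in the sham libraries and at 233, 199 and 106 CPM in the IR libraries of passage 1. Values of passage 2 were 102, 53.8 and 64.6 CPM in sham and 61.9, 77.6 and 67.0 CPM in IR. Its interaction was -1.80 ± 0.38 (unadjusted p = 8.59e-05, adjusted p = 0.181). The membrane serine protease gene Tmprss4 rose in passage 1 by 1.66 ± 0.27 (adjusted p = 0.011) and was -0.12 ± 0.26 in passage 2. Tmprss4 stood at 41.2, 34.3 and 43.6 CPM in sham and 176, 132 and 69.4 CPM in IR libraries of passage 1. Passage 2 held 74.5, 76.8 and 95.6 CPM in sham and 66.5, 92.2 and 69.2 CPM in IR. Sham values of passage 2 were above those of passage 1 here also, and the interaction was -1.78 ± 0.38 (adjusted p = 0.181). Sdr16c6, a short-chain dehydrogenase, completes the 8 genes below 0 with the lowest interaction p and a mean of at least 5 CPM, at -3.57 ± 0.79 (adjusted p = 0.181), with 2.60 ± 0.58 in passage 1 (adjusted p = 0.0534). DESeq2 called all 8 of these genes, as did edgeR's test without IR replicate 3 of passage 1.

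Among the other genes called in passage 1, Psca, a surface antigen of glandular epithelium, was at 7.43, 0.582 and 3.59 CPM in sham and 101, 164 and 16.4 CPM in IR of passage 1, against 16.5, 5.91 and 6.03 CPM in sham and 1.72, 4.64 and 8.33 CPM in IR of passage 2. Its interaction was -5.43 ± 1.26 (unadjusted p = 0.000285). Dynap had an interaction of -2.79 ± 0.63, the phosphate transporter gene Slc20a1 of -1.13 ± 0.32, the fatty acid activating enzyme gene Acsbg1 of -2.88 ± 0.73 and the peroxiredoxin gene Prdx6 of -0.81 ± 0.24. Procr, the endothelial protein C receptor and a marker of progenitor cells in several epithelia, was at 2.70, 6.40 and 6.67 CPM in sham and 29.3, 40.6 and 12.7 CPM in IR of passage 1, and its passage 2 groups overlapped at 16.5, 15.4 and 13.8 CPM in sham and 9.18, 12.6 and 20.6 CPM in IR. Tubb3, a tubulin known from neurons, had no count in the 3 sham libraries of passage 1 and was at 5.77, 9.45 and 2.81 CPM in IR. A floor of 3 counts over the sham group, which covers counting error only, corresponds to 0.583 CPM. Prl2c2 and Prl2c3, prolactin family genes, were at 0 in 2 of 3 sham libraries of passage 1 and at up to 67.1 and 26.5 CPM in IR. They are near-identical copies, so the split of reads between them is uncertain. Cyp1b1, a cytochrome P450, rose in passage 1 by 1.45 ± 0.30 (adjusted p = 0.042), was 0.56 ± 0.32 in passage 2 (unadjusted p = 0.0906), and had an interaction of -0.89 ± 0.43.

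On the other side of the interaction stood Cp, Ltf, Wfdc2 and Krt8, whose irradiation effect was more positive in passage 2 than in passage 1. Cp (ENSMUSG00000003617), the copper-carrying ferroxidase ceruloplasmin, had the lowest p in this direction. The sham libraries of passage 1 held 1235, 1501 and 1171 CPM of Cp and the IR libraries 866, 784 and 1012 CPM. The passage 2 values were 350.1, 295 and 344 CPM in sham and 1334, 1590.0 and 471 CPM in IR. IR lay below sham in passage 1 and above it in passage 2, with no overlap in either. The effect was -0.55 ± 0.35 in passage 1 (adjusted p = 0.633) and 1.78 ± 0.36 in passage 2 (adjusted p = 0.181), and the interaction was 2.33 ± 0.51 (unadjusted p = 0.000136, adjusted p = 0.181). Ltf, the secreted iron-binding protein lactotransferrin, followed. Passage 1 gave 39.8, 44.8 and 42.6 CPM of Ltf in sham and 27.9, 29.3 and 41.3 CPM in IR libraries. For passage 2 they were 24.4, 26.6 and 26.7 CPM in sham and 119, 206 and 56.1 CPM in IR. Its passage 2 effect was 2.28 ± 0.41 (adjusted p = 0.0527), and its interaction was 2.64 ± 0.59 (unadjusted p = 0.000179). Both genes were called in the interaction by DESeq2. Both also had their smallest IR value of passage 2 in replicate 3.

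Wfdc2, a secreted duct protein, and Krt8, a simple keratin of luminal cells, were the 2 genes called in passage 2. Wfdc2 was at 997, 842 and 969.6 CPM in the sham libraries and at 1295, 990.2 and 1285 CPM in the IR libraries of passage 1. Values of passage 2 were 452, 311 and 324 CPM in sham and 1166, 958 and 654 CPM in IR. Wfdc2 rose in passage 2 by 1.35 ± 0.20 (adjusted p = 0.00881), was 0.35 ± 0.20 in passage 1 (adjusted p = 0.561), and had an interaction of 1.01 ± 0.28 (unadjusted p = 0.00152, adjusted p = 0.351). Krt8 stood at 128, 171 and 206 CPM in sham and 206, 227 and 218 CPM in IR libraries of passage 1. Passage 2 held 50.6, 41.3 and 42.6 CPM in sham and 118, 121 and 75.0 CPM in IR. Krt8 rose in passage 2 by 1.22 ± 0.21 (adjusted p = 0.0454), and its effect in passage 1 had the same sign, 0.36 ± 0.20. In both genes the passage 2 sham libraries held the lowest values of the 12, and no IR library of passage 2 passed the highest value of passage 1. Krt18, the partner of Krt8, had an interaction of 0.77 ± 0.31 and the ion cotransporter gene Slc12a2 of 0.74 ± 0.33. For Krt7 it was 0.68 ± 0.40 (unadjusted p = 0.105). Of 22 tested luminal duct genes (of 28) 5 were above 0 at an unadjusted p under 0.05 (Ltf, Wfdc2, Krt8, Krt18 and Slc12a2) and 1 was below (Gsto1, a glutathione transferase that rose in passage 1 by 1.96 ± 0.43, adjusted p = 0.0474). The list's median was 0.05, close to the 0.03 of all genes, and changed sign under some alternatives.

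**Figure D4:**
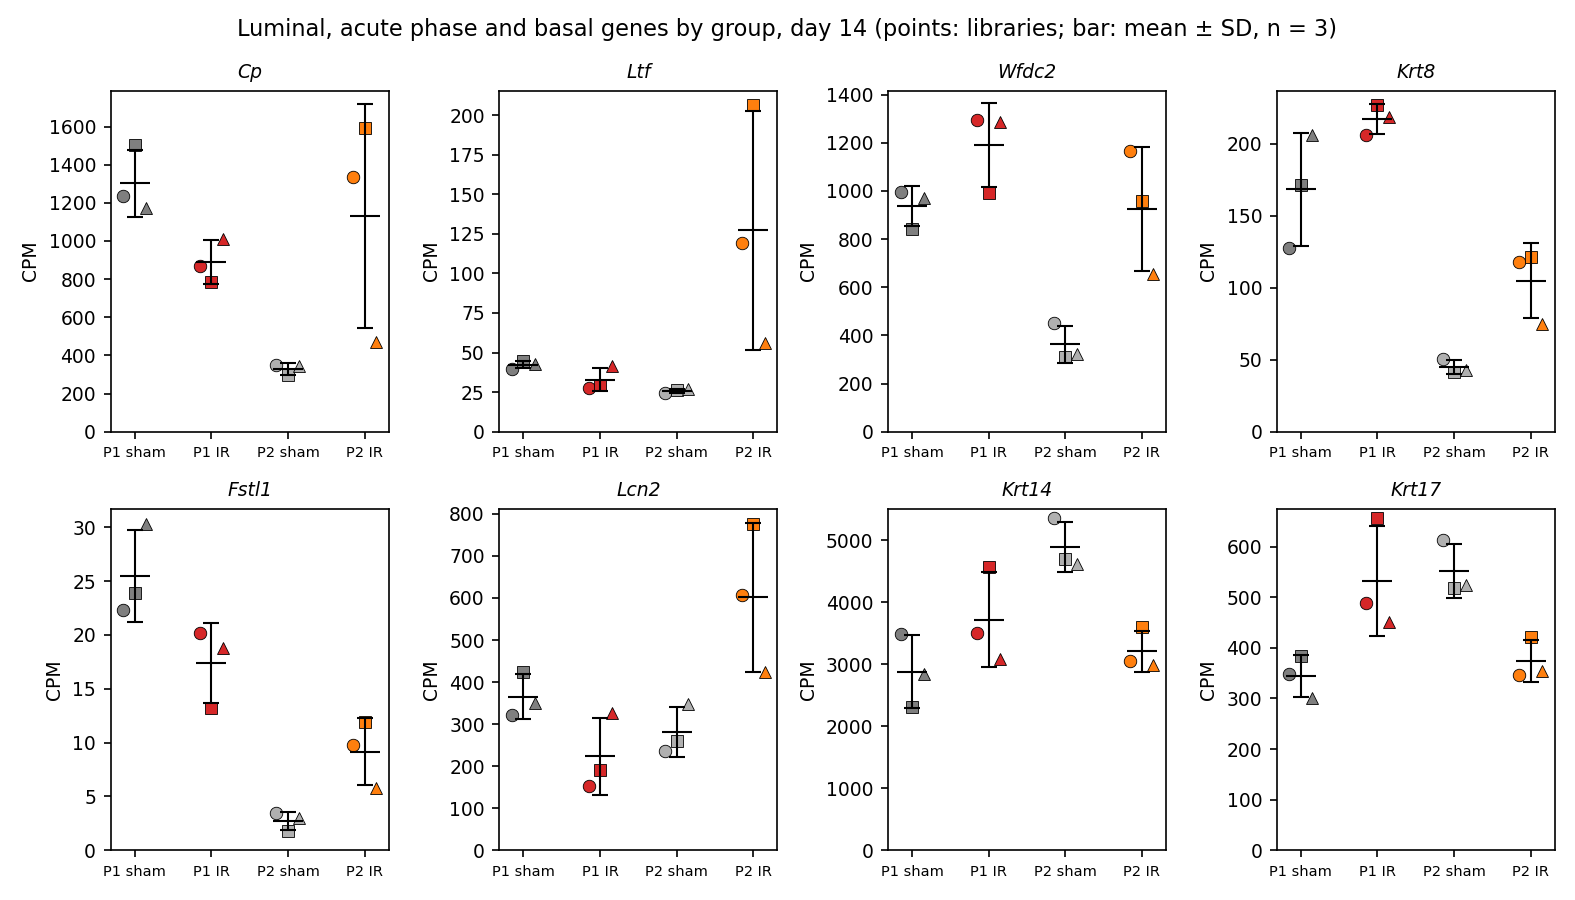
CPM of luminal and acute phase genes and of 2 basal keratins in each library of day 14, by group (circle, square and triangle are replicates 1 to 3, bars are mean ± SD, n = 3). Cp, Wfdc2, Krt8 and Fstl1 are lowest in passage 2 sham, and every IR library lies above every sham library in passage 2, whereas Krt14 and Krt17 have their highest mean in passage 2 sham and are lower in every IR library there.

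Basal duct genes gave 6 values below 0 and 1 above at an unadjusted p under 0.05 (3.26% and 3.64% of all tested genes), of 26 tested (of 27), with a median of -0.11. The 6 were Krt17, Dsg3, Trim29, Pkp1, Igfbp2 and Krt14, and the 1 above was Igfbp5. Krt17 is also on the squamous list, and Igfbp2 and Igfbp5 are also on the IGF list, so the counts of these lists are not separate. Krt17, a keratin of basal and stressed epithelium, was at 348, 384 and 301 CPM in sham and 489.5, 657 and 451 CPM in IR of passage 1, against 614, 518 and 524 CPM in sham and 346, 421 and 355 CPM in IR of passage 2. IR was thus above sham in passage 1 and below it in passage 2, with no overlap, and the interaction was -1.19 ± 0.39 (unadjusted p = 0.00577). The desmosomal cadherin gene Dsg3 had -1.28 ± 0.46, the plakophilin gene Pkp1 -0.72 ± 0.28 and Krt14 -0.98 ± 0.47. The mean log2 CPM of the basal list was 7.16, 7.02 and 7.04 in sham and 6.59, 6.65 and 6.80 in IR of passage 1, and 7.49, 7.74 and 7.71 in sham and 7.04, 6.95 and 7.06 in IR of passage 2. On this measure IR lay below sham in both passages. The median effect of the members was -0.04 in passage 1, with 11 above 0 and 15 below. In passage 2 it was -0.38, with 3 above 0 and 23 below.

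Acute phase and NF-kappaB genes were divided. Of 24 tested (of 30) 3 were above 0 and 3 below at an unadjusted p under 0.05, against 3.64% and 3.26% of all tested genes. Lcn2, an iron-siderophore binding protein, was at 321, 424 and 350.1 CPM in sham and 153, 189.9 and 325 CPM in IR of passage 1, and at 236, 259 and 348 CPM in sham and 607, 777 and 423 CPM in IR of passage 2, an interaction of 1.81 ± 0.57 (unadjusted p = 0.00449). The serum amyloid gene Saa3 had 3.54 ± 1.35 and the complement gene C3 1.62 ± 0.65. Below 0 were Tnfaip2 at -1.69 ± 0.55, the cytokine gene Il1a at -2.45 ± 1.05 and the growth factor gene Csf3 at -2.82 ± 1.09. The remaining genes with the lowest interaction p above 0 were Smo, the signal transducer of hedgehog, at 2.23 ± 0.52 (adjusted p = 0.195), Ccdc141 at 1.71 ± 0.41, Stard13 at 2.23 ± 0.60, the acyltransferase gene Mboat2 at 1.32 ± 0.36, the cAMP phosphodiesterase gene Pde7a at 0.88 ± 0.23, and Fstl1. For Smo, Stard13 and Pde7a the larger effect was the one below 0 in passage 1, where Smo was -1.24 ± 0.37, Stard13 -1.57 ± 0.40 and Pde7a -0.72 ± 0.16. For Pde7a the adjusted p in passage 1 was 0.054 and the passage 2 effect 0.16 ± 0.16.

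Id2, Vnn1 and Tnfrsf26 had passage 2 effects of the same sign as in passage 1 and not far from them in size. Id2, a BMP-induced inhibitor of helix-loop-helix factors, rose in passage 1 by 1.25 ± 0.24 (adjusted p = 0.0296) and had 1.14 ± 0.25 in passage 2 (unadjusted p = 0.000123, adjusted p = 0.185). The sham libraries of passage 1 held 165, 206 and 206 CPM of Id2 and the IR libraries 489.5, 484 and 398 CPM. The passage 2 values were 104, 125 and 130.5 CPM in sham and 332, 331 and 134 CPM in IR. No IR library overlapped sham in either passage, though IR replicate 3 of passage 2 was close to sham. The interaction was -0.10 ± 0.34, and it turned above 0 without that library. Id1 and Id3, which were not called in either passage, had 1.36 ± 0.50 and 1.22 ± 0.52 in passage 1 and 1.95 ± 0.55 and 1.70 ± 0.56 in passage 2. Vnn1, a pantetheinase, rose in passage 1 by 2.18 ± 0.43 (adjusted p = 0.0296). Passage 1 gave 15.5, 29.7 and 26.2 CPM of Vnn1 in sham and 136, 126 and 67.0 CPM in IR libraries. For passage 2 they were 26.7, 16.5 and 25.4 CPM in sham and 71.7, 92.9 and 46.0 CPM in IR. Its passage 2 effect was 1.59 ± 0.43 (unadjusted p = 0.0012), again with no overlap, and the interaction was -0.59 ± 0.60. Tnfrsf26, a tumour necrosis factor receptor family gene, had 1.37 ± 0.30 and 0.97 ± 0.31 in the 2 passages. Car6, the secreted carbonic anhydrase of saliva, rose in passage 1 by 2.87 ± 0.51 (adjusted p = 0.0265) from 13.5, 5.24 and 11.3 to 76.0, 122 and 26.3 CPM. In passage 2 it was at 0, 1.77 and 0.861 CPM in sham and 4.59, 1.99 and 2.90 CPM in IR, near its detection limit.

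Bmp4, the BMP ligand in the title of the series, was low. Bmp4 was at 4.73, 2.33 and 7.70 CPM in the sham libraries and at 5.77, 6.61 and 12.2 CPM in the IR libraries of passage 1. Values of passage 2 were 1.14, 0 and 0.861 CPM in sham and 3.44, 5.97 and 1.81 CPM in IR. Groups overlapped in passage 1 and not in passage 2. The effects were 0.74 ± 0.48 and 2.24 ± 0.74 (unadjusted p = 0.00586 in passage 2), and the interaction was 1.50 ± 0.89 (unadjusted p = 0.104, adjusted p = 0.804). Of 16 tested BMP ligands, receptors and antagonists (of 28) 1 was above 0 at an unadjusted p under 0.05 (3.64% of all tested genes). That was Fstl1, a secreted glycoprotein that binds BMPs, at 22.3, 23.9 and 30.3 CPM in sham and 20.2, 13.2 and 18.8 CPM in IR of passage 1 and 3.41, 1.77 and 3.01 CPM in sham and 9.75, 11.9 and 5.79 CPM in IR of passage 2, an interaction of 2.18 ± 0.59 (unadjusted p = 0.00117, adjusted p = 0.338). Smad1, which carries the BMP signal to the nucleus, had 0.45 ± 0.24 (unadjusted p = 0.0773). None of 9 tested BMP target genes (of 16) passed the unadjusted threshold, and their median was -0.10. The members with the lowest p were Id1, at 0.60 ± 0.74, and the inhibitory gene Smad6, at -0.44 ± 0.55.

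**Figure D5:**
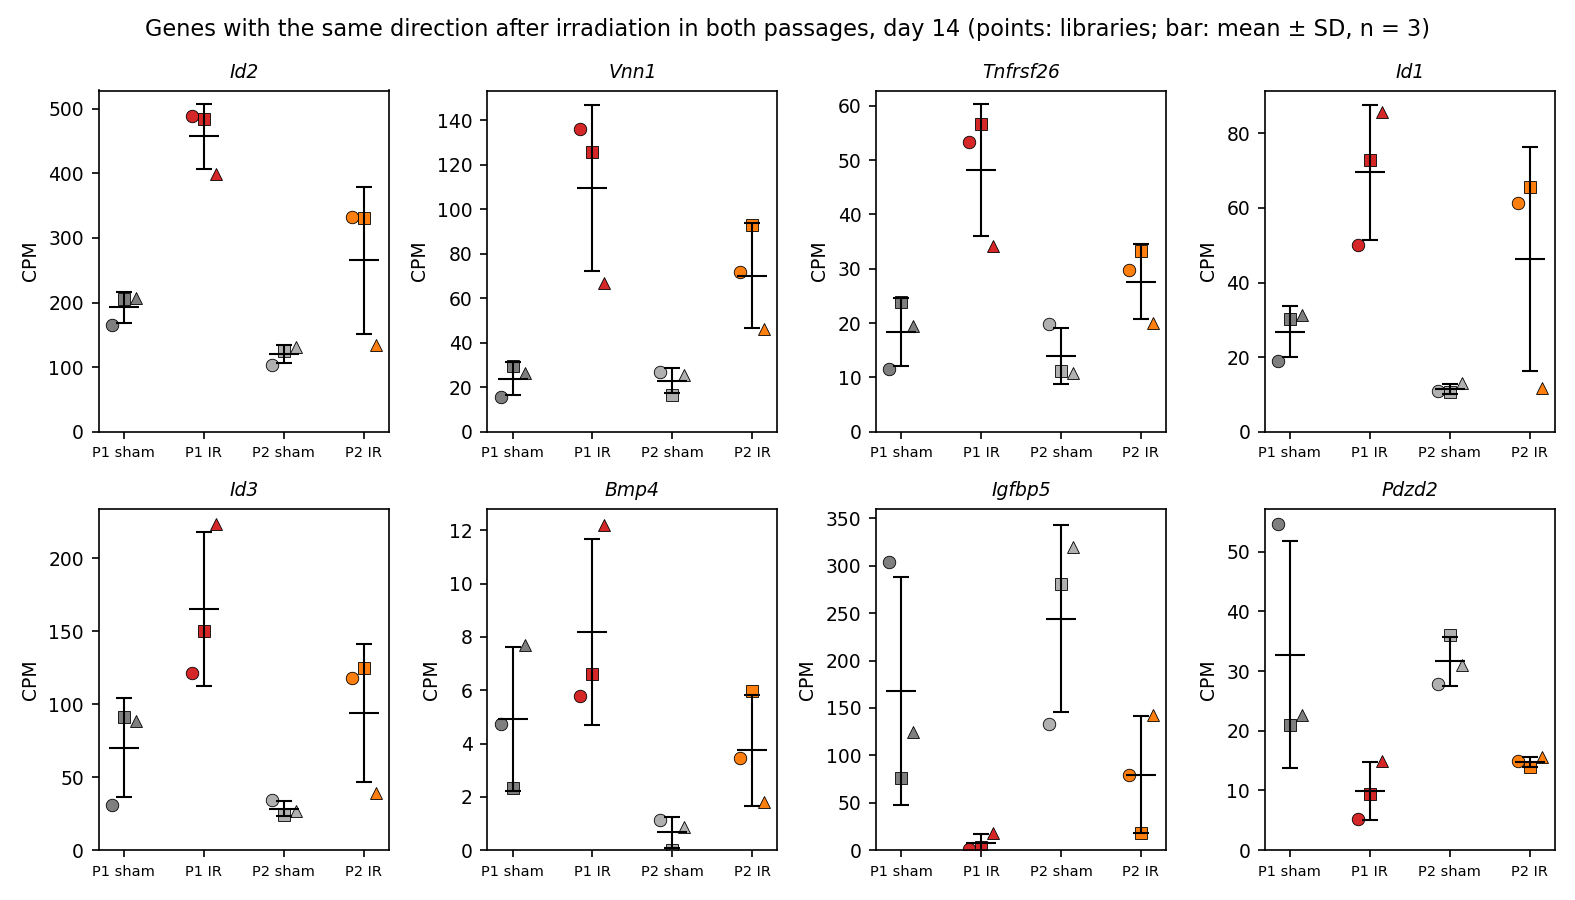
CPM of 8 genes whose mean moved in the same direction after irradiation in both passages, in each library of day 14 by group (circle, square and triangle are replicates 1 to 3, bars are mean ± SD, n = 3). Id2 and Vnn1 are higher in IR than in sham libraries in both passages, Pdzd2 is lower in both, and IR replicate 3 of passage 2 lies nearest to sham in Id2, Id1 and Id3.

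The 5 genes that fell in passage 1 were Gas1, Igfbp5, Tgfbr3, Pdzd2 and Bnc2, and all 5 were below 0 in passage 2 without being called. Gas1, a growth arrest gene, fell by 2.55 ± 0.50 on the log2 scale in passage 1 (adjusted p = 0.0296). Gas1 stood at 276, 175 and 196 CPM in sham and 22.6, 12.3 and 70.3 CPM in IR libraries of passage 1. Passage 2 held 177, 455 and 448 CPM in sham and 146, 118 and 338 CPM in IR. The passage 2 groups overlapped, and the interaction was 1.71 ± 0.67 (unadjusted p = 0.0176). The IGF-binding protein gene Igfbp5 was at 304, 75.7 and 124 CPM in sham and 0.962, 3.78 and 17.8 CPM in IR of passage 1, and at 133, 280.5 and 319.5 CPM in sham and 79.1, 17.9 and 142 CPM in IR of passage 2, an interaction of 2.77 ± 1.18 (unadjusted p = 0.0283). Tgfbr3, the co-receptor betaglycan, went from 8.10, 12.8 and 9.75 to 0.481, 0 and 1.88 CPM in passage 1 and had 10.2, 21.3 and 21.1 CPM in sham and 10.9, 4.64 and 22.1 CPM in IR of passage 2, an interaction of 2.96 ± 0.90 (unadjusted p = 0.00318). Pdzd2, which encodes a PDZ domain protein, was at -1.69 ± 0.36 in passage 1 and -1.08 ± 0.34 in passage 2 (unadjusted p = 0.004). Of 23 tested TGF-beta genes (of 27) 2 had interactions above 0 at an unadjusted p under 0.05, Tgfbr3 and Ltbp2 (2.19 ± 0.76), and none below.

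Gas1 is also a fibroblast marker. Of 18 such markers 11 had at most 3 counts in any library, and 6 of these were at 0 in all 12 libraries. Another 6 were tested, and 2 had interactions above 0 at an unadjusted p under 0.05, Gas1 and the matrix gene Postn (2.59 ± 1.20). The summed CPM of all 18 markers, Gas1 among them, was 1227, 867 and 909 in sham and 137.5, 91.7 and 339.9 in IR of passage 1. It was 506, 1328 and 1294 in sham and 562, 395.5 and 1403 in IR of passage 2. Most counts of this sum over the 12 libraries were of Postn (11183) and Gas1 itself (4789), followed by Vim (1127). Col1a1 and Col1a2 did not pass 1 and 3 counts in any library, and Col3a1 was at 0. The part of fibroblasts in the results for Gas1, Igfbp5 and Tgfbr3 was not tested.

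Interferon response genes had a high median interaction, with no member past the unadjusted threshold. Of 40 tested genes (of 43) all were above 0, with a median of 2.17, and none had an unadjusted p under 0.05. Under the alternatives 0 to 34 members were above 0 at that threshold, and with no filter, which gave the 34, 20 were called. In passage 1 all were below 0 (median -2.80), 28 of them at an unadjusted p under 0.05 (5.48% of all tested genes). The passage 2 median was -0.62. In passage 1 every sham library lay above every IR library in the mean of the list, and in passage 2 the groups overlapped. The mean log2 CPM of the list was 3.20, 5.54 and 2.77 in sham and 2.12, 2.09 and 2.23 in IR of passage 1, and 1.94, 5.78 and 5.61 in sham and 2.34, 2.67 and 5.66 in IR of passage 2. The median ranged from -0.85 to 2.64 under the alternatives, and so did not keep its sign. It was 0.29 without sham replicate 2 of passage 1 and -0.29 without IR replicate 3 of passage 2. The -0.85 came without the 2 passage 2 libraries that stood apart, where the sham libraries kept were high in this list and the IR libraries low. The 17 tested genes of MHC class I and the immunoproteasome (of 20) had a median of 0.80 (-0.72 to 1.16 under the alternatives), and none was past the unadjusted threshold, against 0 to 9 above 0 under the alternatives. The 2 members with the lowest p were the immunoproteasome subunit genes Psmb10 (1.15 ± 0.68) and Psmb9 (2.22 ± 1.43), and in the interferon list they were Ifi27 (0.78 ± 0.38) and Oasl1. Oasl1 had no count in the IR libraries of passage 1 and was at 1.35, 9.89 and 1.03 CPM in sham there and at 0.568, 12.4 and 3.88 CPM in sham and 1.15, 0.664 and 8.69 CPM in IR of passage 2.

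The p53, cell cycle, YAP and IGF lists were counted in the same way. Over all tested genes 3.64% were above 0 and 3.26% below at an unadjusted p under 0.05. The p53 and cell cycle counts were near these shares. Of 25 tested p53 targets 1 was above 0 (the translesion polymerase gene Polk, 1.19 ± 0.36) and 1 below (Perp, -0.63 ± 0.27) at an unadjusted p under 0.05, with a median of -0.01. Cdkn1a, the cell cycle inhibitor p21, had 0.94 ± 0.27 in passage 1 (adjusted p = 0.145), 0.31 ± 0.27 in passage 2 and an interaction of -0.63 ± 0.38 (unadjusted p = 0.107). Mdm2, the ligase that limits p53, had 0.24 ± 0.24 in passage 1 and 0.88 ± 0.23 in passage 2, with an interaction of 0.64 ± 0.33 (unadjusted p = 0.0656). Of 34 cell cycle genes 1 was below 0, the kinase gene Aurka at -1.71 ± 0.71, with a median of -0.10 that changed sign under some alternatives. The replication helicase gene Mcm4 had 0.58 ± 0.41. The proliferation marker Mki67 had 0.13 ± 0.79 (unadjusted p = 0.873). Of 24 tested YAP and regeneration genes (of 26) 4 were above 0 at an unadjusted p under 0.05 and none below, Ankrd1 (3.08 ± 0.94), Ccn1 (2.75 ± 0.99), Ccn2 (2.38 ± 0.97) and Msln (2.05 ± 0.97). The list's median was 0.33, and it was -0.10 without IR replicate 3 of passage 2. That library held the highest Ccn1 and Ccn2 values of passage 2, at 113.7 and 184.7 CPM. Under the alternatives the interaction ranged from 1.19 to 3.54 for Ccn1 and from 0.71 to 2.81 for Ccn2. Ankrd1 was at 6.08, 5.24 and 4.11 CPM in sham and 2.40, 3.78 and 0.938 CPM in IR of passage 1, with IR below sham. In passage 2 it was at 0.568, 0.591 and 0.431 CPM in sham and 2.29, 2.65 and 1.45 CPM in IR, with IR above sham. A floor of 3 counts over the passage 2 sham group corresponds to 0.5195 CPM, so these sham values were at the detection limit. Of 10 tested genes of IGF signalling (of 13) 3 were above 0 and 2 below. Above were Irs1 (1.34 ± 0.39), Igfbp4 (1.74 ± 0.80) and Igfbp5, and below were Igfbp3 (-2.24 ± 0.77) and Igfbp2 (-2.45 ± 1.14). The acinar water channel gene Aqp5 had 1.42 ± 0.62 (unadjusted p = 0.033), and the duct keratin gene Krt19 -0.36 ± 1.25.

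The same interaction at day 90 served as the comparison most like this one. The difference between the interactions of day 90 and day 14 was called in 0 genes (0.0%) by edgeR's test and by DESeq2, with 451 genes (4.27%) at an unadjusted p under 0.05 and a lowest adjusted p of 1.00. The median interaction of the NRF2 list was 0.06 at day 90, against -0.94 at day 14. For the squamous list it was -1.03 against -2.60, and for the luminal list 0.39 against 0.05. Srxn1 had an interaction of -0.02 ± 0.44 at day 90, which differed from day 14 by 2.11 ± 0.63 (unadjusted p = 0.00293). For Gsta4 the day 90 value was -1.14 ± 0.77 and the difference 2.88 ± 1.11 (unadjusted p = 0.0166), and for S100a8 they were -3.19 ± 1.08 and 1.10 ± 1.34 (unadjusted p = 0.418). Ltf was at 0.20 ± 0.55 and differed by -2.44 ± 0.81 (unadjusted p = 0.00613), and Fstl1 was at 1.88 ± 0.50 and differed by -0.30 ± 0.79 (unadjusted p = 0.707). None of these differences passed the adjusted threshold, so they do not show that the early interaction is particular to day 14.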

How the data were processed

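Per the file contents, the authors deposited unnormalized read counts for each gene under Ensembl mouse identifiers, with a separate file for every library. Column-purified RNA went into the QuantSeq 3′ kit, per the labels' protocols. bcl2fastq and the build GRCm39 are named in the submitters' processing notes. The aligner, counter, annotation and strand setting were not given in the sources used here, and overlapping genes and close copies may have shared reads. A file listed 47643 genes, 47224 of which matched a symbol in a reference annotation, and 5 lines that name no gene, which were left out of library sizes. At day 14, 12.9% to 26.5% of a library's reads fell on no gene. Pairs of replicates differed by more than sampling noise (chi-square divided by its degrees of freedom 2.07 to 19.3), and no duplicate was found.

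All 24 libraries entered 1 fit with 1 mean per group, in edgeR 4.0.16 under R 4.3.3, with TMM factors, filterByExpr and the two-sided quasi-likelihood test. P-values were adjusted by Benjamini-Hochberg over the 10563 tested genes, and a gene was called at an adjusted p under 0.05. An SE was derived from the log2 value and the F statistic. Values are CPM with TMM factors, and list means are of log2 CPM with a prior count of 2. The script was tested on simulated counts. The members and lists were chosen with earlier results of these data known. Named genes were up to 8 in each direction of the interaction (called, or else by lowest p, mean CPM of 5 or more, predicted genes left out), up to 20 called in passage 1 and 6 in passage 2, 23 fixed genes, and the 2 members with the lowest p of each list described, 15 of 34 lists being described. Other members named as examples of a count were chosen after their values were seen. Promoter sequences are from RefSeq, GRCm38.p6, a build other than that of the counts. The alternatives were DESeq2 1.42.0, other factors, other filters, a fit of the compared groups alone, a block for replicate number, the Gm42418 share as a covariate, ribosomal RNA genes left out, and libraries left out singly or as a pair.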

Additional observations from a re-analysis of the deposited data

How the results depend on the processing

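The interaction had 0 calls in all but 5 of the 22 alternatives. DESeq2 called 18 genes, the fit with no filter 241, and the fit without the 2 passage 2 libraries that stood apart 8. Leaving out 1 library gave 0 to 24 calls. With only the compared groups the lowest adjusted p was 0.0514. For IR against sham in passage 1, 36 genes were called, and 123 with DESeq2, 460 with no filter, 81 with only the compared groups, 94 with the Gm42418 share as a covariate, 98 without the 2 libraries, and 0 to 146 with 1 library left out. For passage 2, 2 genes were called, and 14 with DESeq2, 200 with no filter, 0 with only the compared groups, 6 with the covariate, 155 without the 2 libraries, and 0 to 38 with 1 library left out. The difference between day 90 and day 14 stayed at 0, also with 1 library of day 14 left out, except for 48 with no filter. No library of day 90 was left out. It has no fit with only the compared groups, since these are all 24 libraries. The cause was not tested. Without the 2 libraries, the passage 2 sham libraries kept were high in interferon response genes and the IR libraries low. Irradiation and the interferon level cannot be told apart in that fit.

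Of 100 genes named in the text, 95 kept the sign of their interaction in every alternative. Without the 2 libraries, Id2 was at 0.14, Krt19 at 0.087, Tnfrsf26 at 0.16 and Psmb9 at -1.38. With 1 library left out at a time, Id2 ranged from -0.30 to 0.23, Krt19 from -0.69 to 0.14, Mki67 from -0.16 to 0.63 and Psmb9 from -0.90 to 3.17.

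Replicate numbers are shared between the groups, and the labels do not say that they mark a shared culture. The correlation of deviations ran from -0.258 to 0.369 over the 18 same-numbered pairs (median 0.082, 9 over 0.1), and its median was -0.028 over the 36 other pairs (7 over 0.1). These correlations do not settle whether the numbers mark a pairing. The numbers were not used as pairs in the main fit, since the labels state no pairing. With the replicate number as a block the interaction had 0 calls, passage 1 had 49, passage 2 had 2 (1 of them shared), and the difference between days 0. Depth limits the low genes most, such as Tubb3, Bmp4, Ankrd1 and Car6, where a few counts set the value.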
